A study of Mus musculus with 6 samples.

Results

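The genes described here are 10 members of the hypoxia response: the oxygen-regulated transcription factor genes Hif1a and Epas1, and 8 of their target genes outside glycolysis, Car9, Egln1, Egln3, Ndrg1, Bnip3, Ankrd37, Kdm3a and P4ha1. They were chosen by symbol, and each was measured by 1 probe set with a single gene symbol, so that all 10 were found among the 30142 genes measured. ID8-VEGF is a mouse ovarian surface epithelial tumour line made to produce vascular endothelial growth factor, and all tumours compared came from it. The cells had been injected beneath the bursa that surrounds the ovary, and tumours were taken at a late stage from 3 mice named C1M3, C1M5 and C2M3. A primary and a metastatic tumour of every mouse went onto an array each, which makes 2 groups of 3 arrays, and the comparison asks how the hypoxia response of metastatic tumours differed from that of primary tumours. No control tissue entered the comparison, and the host strain, age, the site of each metastatic tumour and any surgery or treatment of these 3 mice are not given in the labels.

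Hypoxia-inducible factors (HIFs) are made of an alpha subunit that is destroyed when oxygen is present and a stable beta subunit, Arnt. Prolyl hydroxylases of the Egln family use oxygen to mark the alpha subunit for the Vhl ubiquitin ligase. When oxygen is scarce the alpha subunit persists, enters the nucleus and activates genes for glycolysis, vessel growth, acid balance, mitochondrial turnover and collagen synthesis. The control acts on the protein, so that the mRNA level of Hif1a or Epas1 need not follow the activity of the factor.

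Values are log2 intensities as the authors deposited them, 1 value per gene and tumour, and a difference of 1 is 2-fold. Sets of 3 values follow the mouse order C1M3, C1M5, C2M3. The epithelial and mesothelial genes Krt8, Krt18, Krt19, Upk3b and Wt1 lay between 10.11 and 16.65 on every array. Epcam and Cdh1 lay between 4.73 and 6.69. A gene was taken as above background on an array where it exceeded the 95th percentile of 1526 olfactory and vomeronasal receptor genes there, a level between 4.76 and 5.98. By this measure 9 of the 10 genes were above background on all 6 arrays, as were 34.1% of all genes. Car9 was above it on 5 arrays, and its 5.65 in the metastatic tumour of C2M3 lay below the level of 5.98 there. In RNA from whole tumours, fewer cells of a type and less RNA per cell cannot be told apart. With 3 arrays a group, precision is limited by their number.

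All 10 genes had a lower mean in metastatic than in primary tumours, as did 44.9% of all genes, with a median difference of -0.71 against 0.02 over all genes. None passed the test: with limma, 0 of 10 had an adjusted p under 0.05, where 0% of all genes did, and 0 of 10 had an unadjusted p under 0.05 in this direction, against 1.33% of all genes. In the other direction it was also 0, against 2.88%. With the mouse as a block the counts were 0 again, against 0% and, for lower genes at an unadjusted p under 0.05, 1.97%. Egln3 alone had a mean at least 2-fold lower, as had 0.567% of all genes. The median difference of the 10 genes was -1.11 within C1M3, 0.03 within C1M5 and -1.02 within C2M3. Epas1 and Car9 did not follow this order: Epas1 was higher in the metastatic tumour of C1M3 and lower in the other 2 mice, and Car9 was higher in that of C2M3. The primary and metastatic groups overlapped for all 10 genes, and they stood apart with metastatic tumours lower for 2.84% of all genes. Without the primary tumour of C1M3 the median difference was -0.0072 and 6 of the 10 means were lower. Without the metastatic tumour of C2M3 it was -0.13, also with 6 lower means.

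**Figure D1:**
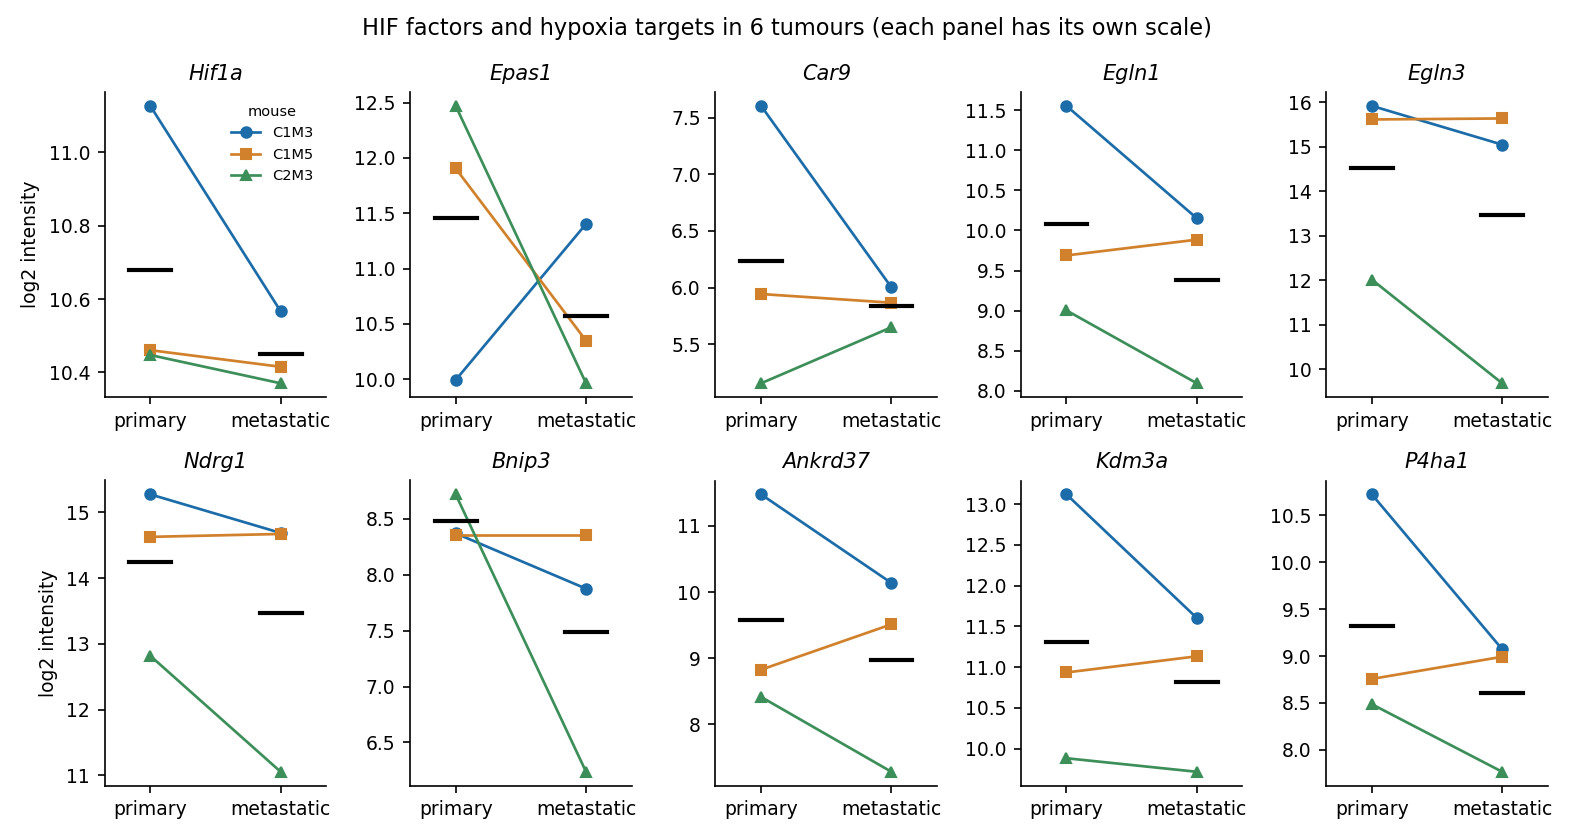
Log2 intensity of each of the 10 genes (vertical axis, a scale of its own in each panel) in primary and metastatic tumours, with a line joining the 2 tumours of a mouse and a black bar at each group mean (n = 3). Most lines slope down in C1M3 and C2M3 and are nearly flat in C1M5, and Epas1 runs upward in C1M3, from 9.99 to 11.40.

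Hif1a, which encodes the alpha subunit of HIF-1, varied least of the 10 genes. Its log2 intensity was 11.13, 10.46 and 10.45 for primary and 10.57, 10.42 and 10.37 for metastatic tumours. The primary tumour of C1M3 was the high one, and the other 5 lay between 10.37 and 10.57. Hif1a was the single member lower in the metastatic tumour of all 3 mice, a pattern of 8.64% of all genes, and its mean difference was -0.23 (SE 0.21, adjusted p = 0.842 with limma). This was -0.0033 with the primary array of C1M3 omitted. Within C1M5 and C2M3 the differences were only -0.05 and -0.08, and the one in C1M5 turned to 0.02 with quantile normalization. A second probe set, shared with the predicted gene Gm15283 and not used, lay between 4.48 and 4.78.

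Epas1, which encodes the HIF-2 alpha subunit, a factor known for high levels in vessel lining cells, followed another order than the rest. Primary tumours read 9.99, 11.91 and 12.47, and metastatic tumours 11.40, 10.35 and 9.96. The primary tumours of C1M5 and C2M3 were thus the highest, and the primary tumour of C1M3 and the metastatic tumour of C2M3 the lowest. Between the 2 tumours of a mouse Epas1 was 2.66-fold higher in the metastatic tumour of C1M3, 2.94-fold lower in that of C1M5 and 5.69-fold lower in that of C2M3. The mean difference was -0.88 (SE 0.78, adjusted p = 0.842 with limma), and -0.38 without the primary tumour of C2M3. Leaving out both tumours of C1M3 gave -2.03 (SE 0.29, adjusted p = 0.211 with limma), and leaving out both of C2M3 gave -0.073.

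The prolyl hydroxylase genes act upstream of the HIFs and are also induced by them. Egln1, the main oxygen sensor for HIF-1, stood at 11.56, 9.69 and 9.002 in primary and 10.15, 9.89 and 8.09 in metastatic tumours. The metastatic tumour was the lower one in C1M3 and C2M3, with differences of -1.404 and -0.91, and in C1M5 the difference was 0.20. Over the 3 mice this gave -0.71 (SE 0.90, adjusted p = 0.858 with limma), or 0.03 without the primary tumour of C1M3. Egln3, the hydroxylase known for the strongest induction by low oxygen, spanned 75.5-fold over the 6 tumours, the widest range among the members. It was at 15.92 and 15.61 in the primary tumours of C1M3 and C1M5, and at 15.05 and 15.63 in their metastatic tumours. Mouse C2M3 stood apart, with 12.01 in its primary and 9.68 in its metastatic tumour. Within C2M3 the metastatic tumour was 5.04-fold lower, and within C1M5 both tumours were within 1.02-fold. The mean difference of -1.06 (SE 2.04, adjusted p = 0.906 with limma) turned to 0.83 without the metastatic tumour of C2M3.

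Ndrg1, a stress and differentiation gene that low oxygen induces in many tumours, followed Egln3. Primary tumours had 15.28, 14.63 and 12.82, and metastatic tumours had 14.69, 14.67 and 11.05. Both tumours of C2M3 were again below the other 4. The metastatic tumour was 1.502-fold lower in C1M3 and 3.40-fold lower in C2M3, and the mean difference was -0.77 (SE 1.27, adjusted p = 0.888 with limma), or 0.44 without the metastatic tumour of C2M3.

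Bnip3 encodes a mitochondrial outer membrane protein that marks mitochondria for removal by autophagy. Its values lay between 7.88 and 8.72 in 5 tumours, and the metastatic tumour of C2M3 was alone at 6.24. The primary tumours had 8.37, 8.36 and 8.72, and the metastatic tumours of C1M3 and C1M5 had 7.88 and 8.36. The 2 tumours of C1M5 were recorded at the same value, and the metastatic tumour of C2M3 was 5.59-fold below its primary tumour. That low value was only 0.26 above the background level of 5.98 there, so that background limits this fold. Its mean difference was -0.99 (SE 0.59, unadjusted p = 0.151, adjusted p = 0.842 with limma), and this was -0.37 without the metastatic tumour of C2M3.

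Car9, Ankrd37, Kdm3a and P4ha1 had their highest value in the primary tumour of C1M3, as did 8 of the 10 genes and 28.9% of all genes. Car9 encodes a carbonic anhydrase on the cell surface that helps tumour cells to regulate pH and is used as a tissue marker of hypoxia. It lay at 7.60 in the primary tumour of C1M3 and between 5.16 and 6.002 in the other 5, of which the primary tumour of C2M3 was the lowest. Within C1M3 it was 3.03-fold lower in the metastatic tumour. Within C2M3 it was 1.41-fold higher there, where it did not exceed background. The mean difference was -0.39 (SE 0.65, adjusted p = 0.889 with limma) and 0.29 without the primary tumour of C1M3.

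Ankrd37 encodes a small ankyrin repeat protein and is a known direct HIF-1 target. Its 3 primary values were 11.48, 8.83 and 8.42, and its 3 metastatic values were 10.14, 9.51 and 7.29. It was lower in the metastatic tumour by 2.53-fold in C1M3 and 2.19-fold in C2M3, and 1.61-fold higher in C1M5. Its mean difference of -0.59 (SE 1.16, adjusted p = 0.907 with limma) was 0.36 when the primary array of C1M3 was omitted and 0.25 when the metastatic array of C2M3 was.

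Kdm3a, which encodes a histone demethylase that removes methyl groups from lysine on histone H3, read 13.12, 10.94 and 9.88 for primary and 11.60, 11.13 and 9.72 for metastatic tumours. The levels were ordered by mouse, with both tumours of C1M3 highest and both of C2M3 lowest. The metastatic tumour was 2.86-fold lower within C1M3, and the other 2 mice differed by at most 1.15-fold. The mean difference was -0.49 (SE 0.99, adjusted p = 0.91 with limma), and 0.41 without the primary tumour of C1M3.

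P4ha1 encodes a catalytic subunit of the enzyme that hydroxylates proline in collagen, a step that needs oxygen. It measured 10.72, 8.76 and 8.49 in primary, then 9.07, 8.99 and 7.76 in metastatic tumours. The primary tumour of C1M3 stood above the other 5, and its metastatic tumour was 3.14-fold lower. In C1M5 the metastatic tumour was 1.18-fold higher, and in C2M3 it was 1.65-fold lower. The mean difference was -0.71 (SE 0.74, adjusted p = 0.842 with limma), and -0.01 without the primary tumour of C1M3.

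The promoters of several of these genes are shown because HIFs bind DNA at the core ACGTG, or the variant core GCGTG, of the hypoxia response element. RefSeq promoters of build GRCm38.p6 were matched for 8 of the 10 genes, all but Ndrg1 and Epas1, and the 250 bases upstream of each annotated start were searched on both strands. ACGTG was found upstream of 7 of the 8 genes and in 7 of their 10 promoters, and it was in 16.57% of all 32851 promoters and 21.12% of the promoters of genes above the median level. GCGTG was found in 5 of the 10, against 28.16% and 43.00%. Kdm3a held GCGTG before 1 of its 3 annotated starts, and ACGTG before none. The 2 motifs can overlap, and a match on both strands can come from 1 palindromic CACGTG, as in Bnip3 and Hif1a. A match is a description of the letters in this window and not a measured binding site. The members were chosen as HIF genes and known HIF targets, so that a high share with a core can follow from that choice. Whether the cores bear on the levels in these tumours was not tested. Capitals mark both cores, read on either strand. The first 4 are target genes that were highest in the primary tumour of C1M3, and Hif1a is shown as the member that varied least. Kdm3a and Egln3 were also highest there and are not printed.
Car9, chr4:43506776-43507025, plus strand: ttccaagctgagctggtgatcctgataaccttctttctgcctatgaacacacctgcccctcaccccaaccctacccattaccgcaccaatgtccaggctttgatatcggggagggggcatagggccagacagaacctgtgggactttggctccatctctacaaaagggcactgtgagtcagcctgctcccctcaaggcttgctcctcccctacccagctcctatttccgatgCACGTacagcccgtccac
Ankrd37, chr8:45999851-46000100, minus strand: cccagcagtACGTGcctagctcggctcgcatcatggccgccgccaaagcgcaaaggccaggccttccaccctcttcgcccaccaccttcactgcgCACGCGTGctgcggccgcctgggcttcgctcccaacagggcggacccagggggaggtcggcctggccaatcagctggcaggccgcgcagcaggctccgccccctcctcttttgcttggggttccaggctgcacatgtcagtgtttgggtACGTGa
Egln1, chr8:124949255-124949504, minus strand: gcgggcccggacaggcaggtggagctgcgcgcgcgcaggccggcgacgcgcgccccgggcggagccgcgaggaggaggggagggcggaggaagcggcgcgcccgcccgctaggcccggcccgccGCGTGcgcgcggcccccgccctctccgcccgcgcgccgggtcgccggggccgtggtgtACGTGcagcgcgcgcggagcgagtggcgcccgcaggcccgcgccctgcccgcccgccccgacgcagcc
P4ha1, chr10:59323046-59323295, plus strand: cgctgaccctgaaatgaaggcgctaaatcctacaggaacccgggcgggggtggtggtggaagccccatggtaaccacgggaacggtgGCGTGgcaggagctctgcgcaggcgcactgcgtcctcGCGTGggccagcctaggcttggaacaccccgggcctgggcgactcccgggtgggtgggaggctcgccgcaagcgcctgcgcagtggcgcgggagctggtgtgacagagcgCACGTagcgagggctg
Hif1a, chr12:73907617-73907866, plus strand: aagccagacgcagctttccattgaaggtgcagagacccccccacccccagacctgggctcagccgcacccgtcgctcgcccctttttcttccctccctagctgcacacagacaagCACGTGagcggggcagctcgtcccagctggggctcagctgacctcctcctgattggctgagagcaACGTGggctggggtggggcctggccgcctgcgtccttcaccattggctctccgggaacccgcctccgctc
In these sequences ACGTG on either strand began 18 bases before the start of Car9, 16 before P4ha1, 68 before Egln1, and 6 and 241 before Ankrd37. Hif1a, whose 6 values spanned 1.69-fold, held it as well, 70 bases before its start and as a palindrome farther upstream.

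Differences within single mice were compared with all genes at a fold of 2, with 1 array per tumour and so no test. In C1M3, 5 of the 10 genes (Car9, Egln1, Ankrd37, Kdm3a and P4ha1) were at least 2-fold lower in the metastatic tumour, as were 4.73% of all genes, and Epas1 was at least 2-fold higher, as were 1.87%. In C2M3, 5 of the 10 genes (Epas1, Egln3, Ndrg1, Bnip3 and Ankrd37) were at least 2-fold lower, against 2.02% of all genes, and none was as much higher, against 5.94%. In C1M5 Epas1 alone was at least 2-fold lower, against 0.859%, and none was as much higher, against 4.12%. Ankrd37 was the one member at least 2-fold lower in both C1M3 and C2M3, and Epas1 was past this fold in opposite directions there. Counted in either size, 9 of 10 were lower in the metastatic tumour of C1M3 and 9 of 10 in that of C2M3, against 54.3% and 31.3% of all genes. In C1M5 it was 3 of 10, against 36.2%. Centring each array on its median shifted the differences of all genes by 0.12, -0.19 and -0.24 in C1M3, C1M5 and C2M3. The counts of lower members were then 9, 6 and 9, against 38.8%, 74.8% and 71.2% of all genes. Centring moves every gene of a mouse by the same amount, so that members near 0 in C1M5 change sign with it. Those of Epas1 and Ankrd37 in C1M5 were -1.75 and 0.50 after centring.

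**Figure D2:**
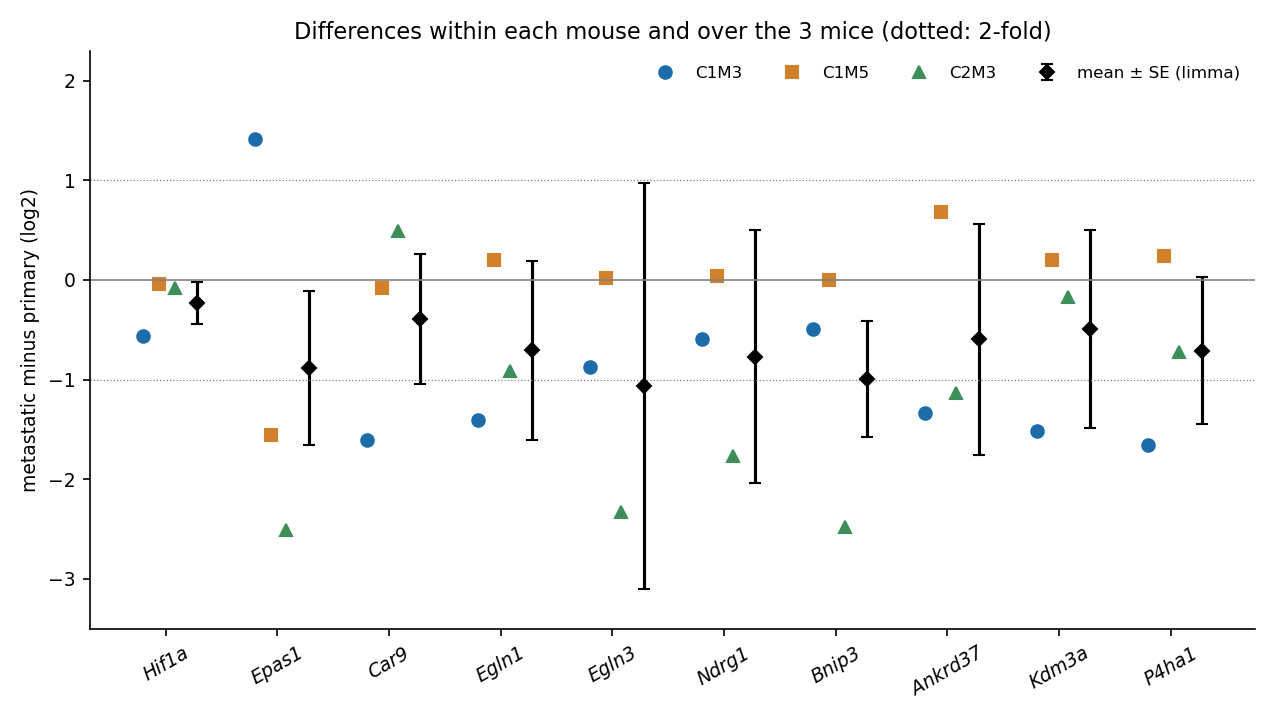
Metastatic minus primary difference on the log2 scale for each gene within each mouse (coloured points), with the mean over the 3 mice (black diamonds). Black bars are the limma SE of the fit without the mouse as a block, and so not the spread of the coloured points. Dotted lines mark 2-fold. Points of C1M5 lie close to 0 except for Epas1 at -1.56 and Ankrd37 at 0.69, and those of C2M3 reach -2.51 for Epas1.

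Over the 6 tumours 9 of the 10 genes, all but Hif1a, spanned at least 2-fold, as did 21.1% of all genes, and most of this spread lay between mice. The share of a gene's sum of squares that lay between mice had a median of 72.4% over the 10 genes, against 39.7% over the 29847 genes whose values varied. The share between tissues had a median of 8.97%, against 18.2%. Mouse held 90.5% for Egln3, 86.6% for Ndrg1, 84.7% for Kdm3a, 83.2% for Ankrd37 and 79.0% for Egln1. These 5 genes had an unadjusted p under 0.05 for the mouse term in limma's model with mouse and tissue, as did 6.1% of all genes, and their adjusted p lay between 0.667 and 0.801, so that none passed. This test was added after the values were seen, and its count of members dropped when single arrays were left out. It was 1 with the primary array of C1M3 omitted, 2 with the metastatic array of C2M3 omitted, and 3 when either the primary array of C2M3 or the metastatic array of C1M3 was omitted. With each array centred on its median, and with quantile normalization, the count was 6. Epas1 and Bnip3 were the exceptions, with 5.43% and 20.5% between mice. The primary tumour of C1M3 was the highest and the metastatic tumour of C2M3 the lowest of the 6 for 7 of the 10 genes, an arrangement of 4.84% of all genes and 6.91% of genes above the median level. By itself, the lowest value in the metastatic tumour of C2M3, held for 9 of the 10 and for 11.7% of all genes. The 3 members without this arrangement were Epas1, Car9 and Bnip3. The pair of highest and lowest tumours was read from the values of the members themselves. Their counts beside the shares of all genes are therefore descriptions and no test.

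**Figure D3:**
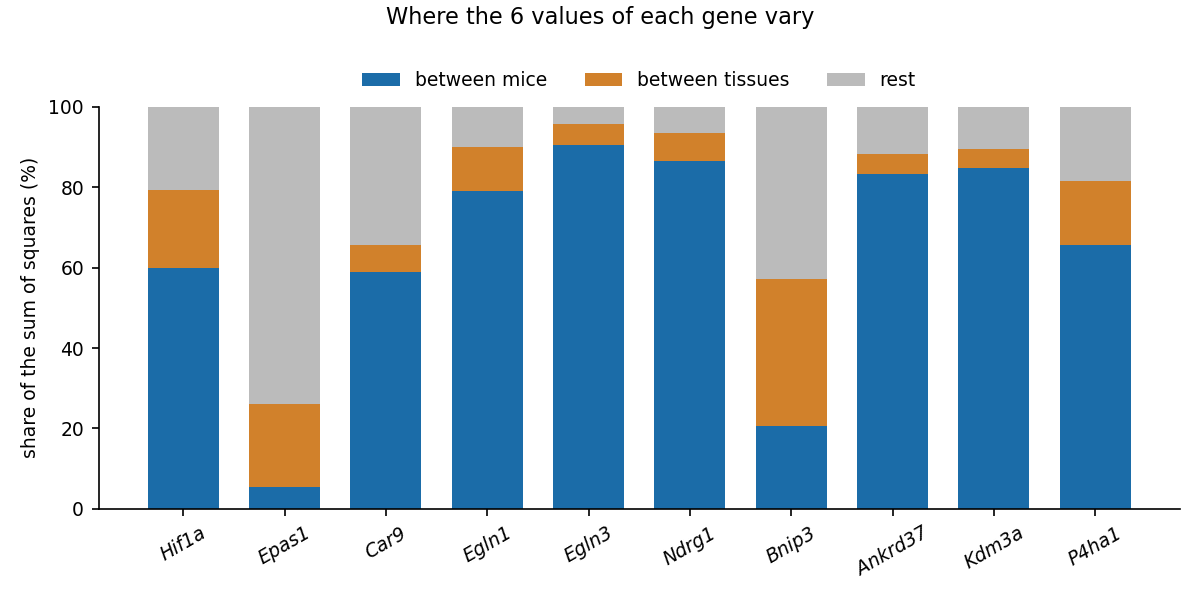
Share of each gene's sum of squares over the 6 arrays, in percent, that lay between mice, between the 2 tissues, or in neither. The part between mice is the largest for 8 genes, and it is smallest for Epas1 at 5.43%.

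Of the other genes of the oxygen-sensing pathway, 0 passed the test in either direction. Among 6 further subunits and coactivators the metastatic mean was the lower one for Arnt, Crebbp, Ep300 and Cited2, against 44.9% of all genes. It was higher for Arnt2 and the same for Hif3a, and the median difference was -0.07. Arnt, the shared beta subunit, lay between 7.92 and 8.11, and Hif3a was recorded at 4.26 on every array, below background on all of them. Cited2, a HIF target whose product competes with HIF for the coactivators Crebbp and Ep300, had 10.85, 10.49 and 10.48 in primary but 9.75, 9.49 and 8.998 in metastatic tumours. Here the groups did not overlap, with metastatic tumours lower in all 3 mice. Its mean difference was -1.19 (SE 0.23), with an unadjusted p of 0.0034 and an adjusted p of 0.842 in limma. Crebbp differed by -0.44 (SE 0.23) and Arnt2 by 0.10 (SE 0.45). Among 8 measured genes of hydroxylation and degradation, 2 had a lower mean, against the same 44.9%, and the median was 0.04. Elob, the elongin B subunit of the Vhl ligase, differed by 0.65 (SE 0.24, adjusted p = 0.842 with limma) and was higher in the metastatic tumour of each mouse, by 0.23, 0.40 and 1.33. Cul2, Siah1a and Vhl, other parts of ubiquitin ligases, differed by 0.11, 0.08 and 0.07. Of the 8 genes 5 were above background on all arrays, and Vhl, Hif1an and Siah2 were not. Egln2, the third hydroxylase, lay between 8.59 and 8.60.

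Other textbook HIF targets outside glycolysis were 28 in number, 21 of them above background on all arrays. The metastatic mean was the lower one for 20 of them, against 44.9% of all genes, with a median of -0.13. With limma 0 passed. The order of the 10 genes was found among them in part: 12 of the 28 had their highest value in the primary tumour of C1M3 and their lowest in the metastatic tumour of C2M3, against 4.84% of all genes. Bnip3l, the Bnip3 relative that also marks mitochondria for removal, differed by -0.85 (SE 0.49), with -1.04, -0.12 and -1.38 within the mice. Ero1a, an oxidase of protein folding in the endoplasmic reticulum, read 12.53, 10.94 and 8.14 for primary and 10.74, 11.15 and 7.18 for metastatic tumours. Vegfa, the growth factor that the line was made to produce, differed by -1.08 (SE 1.39), with -0.49, 0.10 and -2.86 within the mice. How much of its signal came from that change to the line was not tested. Adm, which encodes adrenomedullin, differed by -2.50 (SE 0.64), with -1.34, -2.00 and -4.15 within the mice. It was the 1 gene of the 28 with an unadjusted p under 0.05 (0.0117 with limma). With limma the adjusted p of Bnip3l, Ero1a, Vegfa and Adm lay between 0.842 and 0.905. Of 17 measured glycolytic targets 15 had a lower mean, against 44.9% of all genes, with a median of -0.28, and 0 passed. The same pair of highest and lowest tumours was found for 10 of the 17, against 4.84% of all genes. Above background on all arrays were 13 of the 17. Their widest differences were those of Slc2a1, a glucose transporter gene, at -0.97 (SE 1.68), Pfkl at -0.62 (SE 0.80), Pfkfb3 at -0.54 (SE 0.45) and Aldoc at -0.49 (SE 0.60).

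Proliferation markers had the same high and low tumours as the hypoxia genes. The mean over 14 of them, 11 above background on all arrays, was 9.44, 8.09 and 7.91 for primary and 8.32, 8.18 and 7.29 for metastatic tumours. Of the 14, 13 were highest in the primary tumour of C1M3 and lowest in the metastatic tumour of C2M3. This held for 4.84% of all genes and 6.91% of genes above the median level. The mean of the 10 hypoxia genes was 11.52, 10.51 and 9.74 for primary and 10.66, 10.48 and 8.58 for metastatic tumours. The mean of 12 macrophage markers, of which 5 were above background on all arrays, was lowest in the primary tumour of C1M3, at 6.28, and lay between 7.84 and 8.64 in the other 5. For 9 fibroblast markers, 6 of them above background throughout, the list mean was 6.91 there and 8.07 to 9.74 in the rest. The 10 epithelial and mesothelial markers had means of 9.46 to 10.77 in primary and 9.34 to 10.75 in metastatic tumours, and they were highest in both tumours of C1M5. The part of proliferation and of other cells in the values of the 10 genes was not tested. All 8 neutrophil and all 6 measured T cell markers were below background on at least 1 array, with list means of 4.501 to 5.28.

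Beside Epas1, the mean of 11 endothelial markers was 6.30, 6.98 and 8.21 for primary and 7.06, 6.09 and 7.11 for metastatic tumours, and 6 of the 11 were above background on every array. The median difference of the list within the mice was 0.39, -0.89 and -1.27, of the same signs as Epas1 in each. Cdh5, Esam and Kdr had the highest mean levels of the list, and they did not all go this way. Cdh5, the cadherin of vessel lining cells, had within-mouse differences of 1.56, -2.00 and -2.10. Kdr, a receptor for vascular endothelial growth factor, had 1.54, -1.63 and -1.55. Esam differed little, by 0.10, 0.39 and -0.05, and in C1M5 its sign was opposite to that of Epas1. By level the orders differed. Epas1 was lowest in the metastatic tumour of C2M3, where the endothelial mean was 7.11, and that mean was lowest in the metastatic tumour of C1M5. Adipocyte markers had a mean over 11 genes of 5.71, 8.75 and 10.70 for primary and of 5.87, 5.89 and 5.46 for metastatic tumours (4 of the 11 above background throughout), so that the 2 primary tumours with the highest Epas1 also had the most signal of fat cell genes. The 8 smooth muscle markers, 3 of them above background throughout, had means of 5.81, 7.04 and 7.71 in the primary tumours and of 6.26 to 6.34 in the metastatic ones. The part of vessel, fat and muscle cells in the level of Epas1 was not tested.

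**Figure D4:**
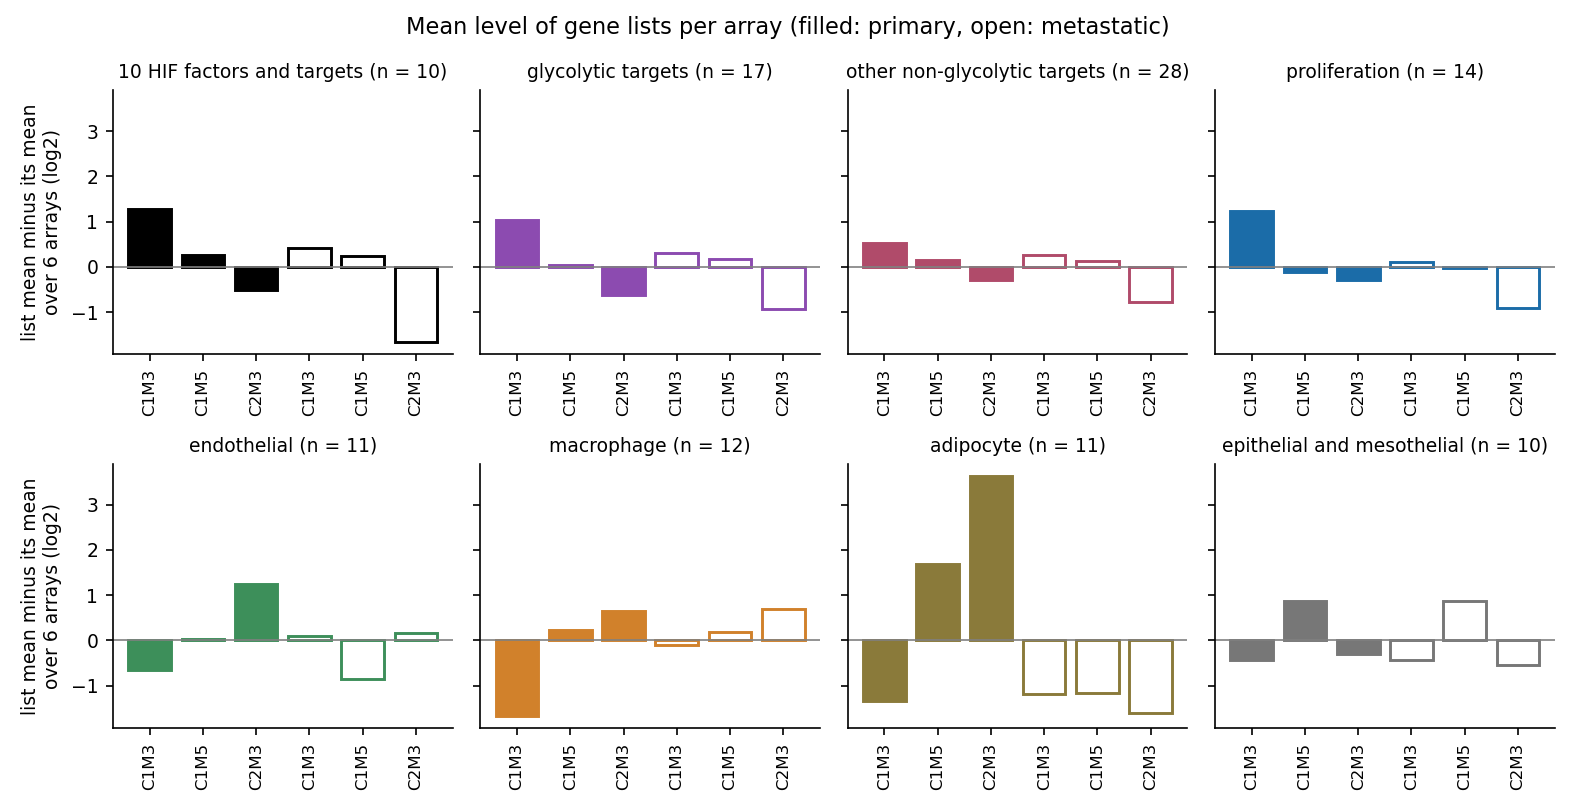
Mean log2 level of 8 gene lists on each array minus the list's own mean over the 6 arrays, with filled bars for primary and open bars for metastatic tumours. The 10 hypoxia genes, the glycolytic targets, the other targets and the proliferation markers are highest in the primary tumour of C1M3 and lowest in the metastatic tumour of C2M3, and the macrophage markers are lowest in the former.

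The genes most like each member were found by Pearson's r over the 6 arrays among 3163 named genes outside the list that were above the median level and spanned at least 2-fold. With 6 arrays from 3 mice many genes reach a high r by the shared order of the tumours, so that these values are descriptions. For the mean of the 10 genes, 57 genes had r above 0.95, led by the Wnt co-receptor gene Lrp5 (0.994), the glycogen branching enzyme gene Gbe1 (0.994) and the cell cycle gene Gtse1 (0.992). Egln3 was most like the mitosis gene Anln (0.995), the HIF target Bhlhe40 (0.993) and Alkbh5 (0.983), and Ndrg1 most like Bhlhe40 (0.99), Scaf11 (0.986) and Dnajc21 (0.985). Bhlhe40, a transcriptional repressor, read 8.43, 8.29 and 7.49 for primary and 8.35, 8.35 and 7.04 for metastatic tumours. Ankrd37 was most like the glycolytic target Pdk1 (0.995), Tk1 (0.987) and Psmb7 (0.987), and Egln1 most like Psmb7 (0.998), the mitotic kinesin gene Kif11 (0.995) and Rad18 (0.995). P4ha1 was closest to Stk24 (0.999), Cenpf (0.998) and Snrnp48 (0.997), and Kdm3a to Slc41a2 (0.998), Rbl1 (0.995) and G2e3 (0.992). Car9 was closest to Arl3 (0.996), Apoo (0.994) and Rbbp7 (0.992). Bnip3 had 5 genes above 0.95, Insig1 (0.977), Stt3b (0.971) and Vcl (0.9705) first. Epas1 had 7 such genes, with the endothelin receptor gene Ednrb (0.995), Arhgap26 (0.983) and the endothelial gene Plvap (0.971) first. Plvap read 5.11, 6.39 and 7.55 for primary and 6.47, 5.18 and 5.11 for metastatic tumours. Its low values, in the primary tumour of C1M3 and the metastatic tumours of C1M5 and C2M3, were below background there (5.76, 5.68 and 5.98). Gtse1, Pdk1, Tk1, Cenpf and Ednrb also lay below the level of 5.98 in the metastatic tumour of C2M3. Hif1a spanned less than 2-fold and was not searched.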

How the data were processed

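Arrays held total RNA of 6 tumours, 1 tumour each. The log2 probe set values were used as the authors deposited them. Per the submitters' processing notes they were made with RMA and Transcriptome Analysis Console, which are named without versions. For the array's genome build the sources used here name none. Background correction and quantile normalization in RMA assume like distributions of signal on all arrays. The tissue label gave the group and the donor label gave the mouse, since the source name of 1 primary tumour names another mouse (C2M2) than its title and donor label (C2M3).

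Of 65956 non-control probe sets, 30604 carried 1 gene symbol in the platform annotation, updated through RefSeq (GRCm38.p6). Where a gene had several, the one with the highest mean was kept, which gave 30142 genes. No member had the same 6 values as another gene. The comparison used limma 3.58.1 (R 4.3.3) with tissue as the only term, empirical Bayes moderation, two-sided tests and Benjamini-Hochberg adjustment over all genes, at a threshold of 0.05. Differences are metastatic minus primary with the moderated SE of this fit, which leaves out the pairing by mouse. The fit was tested on simulated data. The 2 tumours of a mouse are paired by the donor label, and their deviations from the group means correlated across genes with r = -0.05, 0.35 and 0.07 in C1M3, C1M5 and C2M3. The mouse as a block was an alternative, as were other scalings, filters, weights and the omission of arrays or mice.

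The members and gene lists were chosen with earlier results of these data known. Named genes were all members, up to 4 per pathway list by size of difference, list markers, and the 3 genes most like each member. Arnt, Hif3a, Egln2, Bhlhe40, Plvap, Cdh5, Esam, Kdr and the epithelial genes are list members or neighbours whose values were picked for print after they were seen. P-values of the main fit measure the spread between the tumours of a group, each from another mouse. Those of the blocked fit and of the mouse term measure the spread left after mouse and tissue are taken out.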

Additional observations from a re-analysis of the deposited data

How the results depend on the processing

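With the mouse as a replicate block, 0 genes had an adjusted p under 0.05 in limma (1485 at an unadjusted p under 0.05, against 1269 without the block), the median difference of the 10 genes was -0.71 with 10 lower means, and the paired fit changed no call. The block made the SE larger for Epas1 and Bnip3, at 0.96 and 0.62, and smaller for the other members. For Egln3 it was 0.56 against 2.04 without the block, and for Ndrg1 0.43 against 1.27. The members' adjusted p in the blocked limma fit lay between 0.841 and 0.862. Over 16 alternatives, none of 160 member values passed the threshold, and 12 changed sign. Array weights gave 0.18 for Ankrd37 and 0.059 for Kdm3a. Without the primary tumour of C1M3 the differences were 0.29 for Car9, 0.031 for Egln1, 0.36 for Ankrd37 and 0.41 for Kdm3a. Without the metastatic tumour of C2M3 they were 0.83 for Egln3, 0.44 for Ndrg1, 0.25 for Ankrd37 and 0.06 for Kdm3a. Without both tumours of C1M3 they were 0.21 for Car9 and 0.016 for Kdm3a. Over single arrays left out, the lowest values were -0.93 for Car9, -1.25 for Egln1, -2.31 for Egln3, -1.48 for Ndrg1, -1.17 for Ankrd37 and -1.21 for Kdm3a. Hif1a, Epas1, Bnip3 and P4ha1 kept their sign in all 16, but their values came as near to 0 as -0.0033, -0.073, -0.25 and -0.011. Leaving out 1 array at a time moved the median of the 10 genes between -1.15 and -0.0072 and the number of lower means between 6 and 10, and left 0 genes past the threshold for tissue and for mouse. The number of members at an unadjusted p under 0.05 for mouse was 5 in the limma fit, between 1 and 4 without 1 array, and 3 with array weights. It was 6 with centred arrays and with quantile normalization. The median was -0.15 with array weights and -0.30, -1.17 and -0.38 without mouse C1M3, mouse C1M5 and mouse C2M3. Signal over background limits Car9 most, and Bnip3 in the metastatic tumour of C2M3.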
